A study of Mus musculus with 4 samples.

Results

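The kinetochore and spindle checkpoint genes described here are 39 genes chosen by symbol for their known place in these structures, each read through its brightest probe set. All 39 were found among the 18193 genes that have a probe set of their own on the array. They were followed through 4 sorted fractions of mouse leukaemia cells, here named by NS-GFP gate and c-Kit status as GFP-low c-Kit-, GFP-mid c-Kit-, GFP-mid c-Kit+ and GFP-high c-Kit+. All 4 fractions were bone marrow cells on the C57BL/6 background, taken from an acute myeloid leukaemia made by introducing HoxA9/Meis1 into marrow of a transgenic mouse. In that mouse, GFP is driven by a region of the NS (nucleostemin) promoter, so the gate reports the activity of that promoter region, not the protein. Each fraction was measured on 1 Affymetrix array. The age of the mice, and whether cells of several animals were pooled, are not given in the sources used here.

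The kinetochore is the protein assembly that forms on centromeric chromatin and holds chromosomes to spindle microtubules during mitosis. An inner layer sits on nucleosomes that carry the histone variant CENP-A, an outer layer binds the microtubule, and the spindle checkpoint delays anaphase until every kinetochore is attached. Transcripts of many of these genes accumulate late in the cell cycle, so in a population of cells they are widely read as marks of division.

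Promoter sequences are shown for the genes with the largest and the smallest difference along the sort, because the 39 genes differed in the same direction. The windows run from 250 bases before to 50 bases after the annotated start (RefSeq, GRCm38.p6), and 33 of the 39 genes have such a window in the table used. The first set holds Spc25 (chr2:69206164-69206463, minus strand), Ttk (chr9:83834439-83834738, plus strand) and Cenpa (chr5:30666636-30666935, plus strand). The other set holds Bub3 (chr7:131560120-131560419, plus strand), Mis12 (chr11:71019361-71019660, plus strand) and Zw10 (chr9:49055331-49055630, plus strand), the 3 genes under 2-fold between the ends of the sort. Cenpa, the centromeric histone, was added to the first set for its place at the base of the structure. Sequences are written 5′ to 3′ on the gene's strand. Capitals mark TTTGAA, the cell cycle genes homology region (CHR), and CCAAT, the box bound by NF-Y, on either strand.
Spc25: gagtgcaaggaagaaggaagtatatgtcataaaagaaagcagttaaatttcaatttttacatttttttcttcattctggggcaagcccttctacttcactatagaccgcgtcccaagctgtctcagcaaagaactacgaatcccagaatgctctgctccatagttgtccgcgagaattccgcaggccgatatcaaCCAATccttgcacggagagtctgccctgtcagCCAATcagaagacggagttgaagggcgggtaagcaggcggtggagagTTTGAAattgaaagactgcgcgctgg
Ttk: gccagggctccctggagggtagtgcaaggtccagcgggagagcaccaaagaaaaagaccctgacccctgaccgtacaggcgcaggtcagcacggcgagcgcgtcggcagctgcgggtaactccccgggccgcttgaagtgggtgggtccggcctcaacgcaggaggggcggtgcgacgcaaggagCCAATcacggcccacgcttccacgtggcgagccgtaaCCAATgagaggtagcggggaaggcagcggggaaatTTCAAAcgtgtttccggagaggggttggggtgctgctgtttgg
Cenpa: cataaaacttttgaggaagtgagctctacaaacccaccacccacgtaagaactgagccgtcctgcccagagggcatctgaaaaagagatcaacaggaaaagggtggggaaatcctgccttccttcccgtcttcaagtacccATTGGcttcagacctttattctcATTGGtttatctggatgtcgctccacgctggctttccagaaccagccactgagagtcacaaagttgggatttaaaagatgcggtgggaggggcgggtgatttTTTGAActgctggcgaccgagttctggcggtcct
Bub3: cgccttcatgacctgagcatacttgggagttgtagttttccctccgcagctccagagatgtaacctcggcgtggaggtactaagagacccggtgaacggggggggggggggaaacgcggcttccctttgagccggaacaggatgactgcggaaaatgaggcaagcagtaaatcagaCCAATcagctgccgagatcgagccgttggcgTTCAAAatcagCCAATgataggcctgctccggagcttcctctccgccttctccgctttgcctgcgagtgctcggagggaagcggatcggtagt
Mis12: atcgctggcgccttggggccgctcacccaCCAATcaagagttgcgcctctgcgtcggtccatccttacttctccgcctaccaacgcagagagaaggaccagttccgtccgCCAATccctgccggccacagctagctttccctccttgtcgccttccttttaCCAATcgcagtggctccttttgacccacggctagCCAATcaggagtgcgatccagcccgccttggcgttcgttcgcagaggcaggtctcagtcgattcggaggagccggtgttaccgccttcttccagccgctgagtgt
Zw10: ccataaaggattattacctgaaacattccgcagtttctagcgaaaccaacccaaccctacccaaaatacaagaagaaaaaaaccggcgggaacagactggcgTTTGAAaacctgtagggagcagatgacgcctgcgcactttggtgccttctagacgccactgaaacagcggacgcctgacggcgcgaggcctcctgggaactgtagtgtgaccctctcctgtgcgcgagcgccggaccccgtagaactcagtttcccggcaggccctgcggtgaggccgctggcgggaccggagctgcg

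The 33 genes have 37 such windows, since a few have several annotated starts. CHR letters were in 16 of the 37 windows (43.2%), against 17.9% of all 32851 promoter windows. CCAAT was in 27 windows (73.0%) against 37.4%, and both were in 12 (32.4%) against 6.95%. The E2F letters TTTCCCGC or TTTGGCGC, searched in the same way, were in 3 windows (8.11%) against 1.56%. Different motifs overlapped in 2 windows, those of Cdca8 and Cenpw. The 15 genes with CHR letters had a median log2 ratio between the ends of 2.72, and the 18 without had 2.90. The 23 genes with CCAAT had 2.80 and the 10 without had 2.90. The 3 genes with the E2F letters, Cenpl, Cenpm and Dsn1, had a median of 2.02 (1.67 to 2.55), and the 30 without had 2.94. Bub3, which differed little on its brightest probe set, holds CHR letters and a pair of CCAAT boxes, as Spc25 and Ttk do. These counts describe letters in a window and not binding.

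Each fraction has 1 array, so no test between fractions can be run, and values are compared by size. Higher and lower calls need a difference of at least 2-fold on quantile-normalised signals. Signals at or under 15.25, the median over all probe sets, were treated as at the floor, and a ratio with 1 array at the floor is a lower bound. The only repeat measurement is a gene's second probe set, which covers probe error and not the spread between sorts or animals. From all genes with both probe sets above the floor, 1 probe set's log2 ratio had an SD of 0.48 between the ends of the sort, 0.37 for the low to middle step, 0.37 for the c-Kit step and 0.30 for the middle to high step. Between 10310 and 10438 genes lay above the floor on an array. Kit had signals of 6.58, 26.4, 690.2 and 479 from GFP-low c-Kit- to GFP-high c-Kit+. Gnl3, which encodes nucleostemin, had 183, 584, 1109 and 1299. Kit was lower in GFP-high c-Kit+ than in GFP-mid c-Kit+. Gnl3 was lowest in the low gate and highest in the high gate, but it differed 1.90-fold between the fractions of the same middle gate and 1.17-fold between the middle and high gates of c-Kit+ cells.

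After quantile normalisation, all 39 genes had their lowest signal in GFP-low c-Kit- and their highest in GFP-high c-Kit+. In sorted bulk samples, fewer cells of a kind and less RNA per cell cannot be told apart. Among the 11901 genes above the floor in at least 1 fraction, 39.7% were lowest in GFP-low c-Kit- and 32.1% were highest in GFP-high c-Kit+. In 23 of the 39 genes the signal was higher at each step of the sort, an order held by 17.0% of all genes. In the other 16 genes GFP-mid c-Kit- lay above GFP-mid c-Kit+, an order held by 5.92% of all genes. No other order occurred among the 39. Of these genes, 38 were above the floor in all 4 fractions, and Ska3 was below it in GFP-low c-Kit-.

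**Figure D1:**
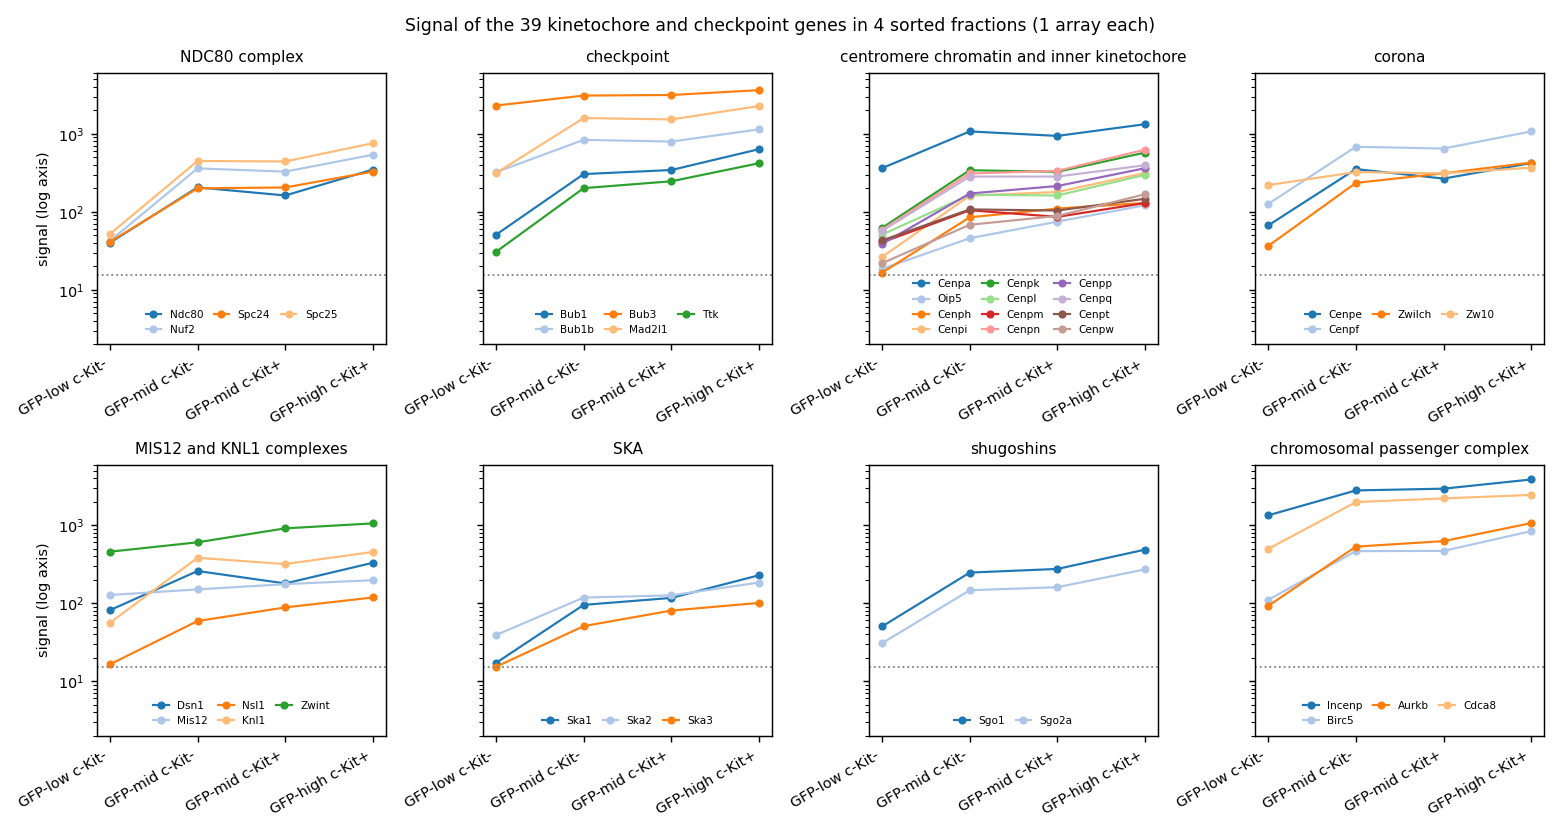
Signal (log axis) of each of the 39 genes in the 4 fractions, 1 array each, grouped by protein complex; the dotted line is the floor of 15.25, to which lower signals are set. Most lines climb from GFP-low c-Kit- to GFP-mid c-Kit-, run nearly level to GFP-mid c-Kit+ and climb again to GFP-high c-Kit+, while those of Bub3, Mis12 and Zw10 stay within 2-fold.

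Between the ends of the sort, 36 of the 39 genes were at least 2-fold higher in GFP-high c-Kit+ than in GFP-low c-Kit-, where 16.1% of all genes tested were. None was at least 2-fold lower, against 13.7% of all genes. The median log2 ratio of the 39 genes was 2.93 (7.64-fold), and that of all genes was 0.09. At least 8-fold differences were seen in 16 of the 39 genes, differences of 4 to 8-fold in 14 and of 2 to 4-fold in 6. The shares of all genes in these classes were not counted. The 39 log2 ratios ran from 0.63 to 3.87.

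Other measures moved along the same arrays. Signals of the 3′ control probe set over those of the 5′ one were, for Actb, 2.50, 3.28, 3.98 and 4.70 along the sort, while the same ratio for Gapdh was 3.37, 3.91, 3.10 and 3.41. Of the added control transcripts, lys had ratios of 8.16, 11.9, 20.7 and 28.7 in the same order and phe had 5.91, 5.54, 7.52 and 13.8. For dap the ratios were 31.4, 38.4, 59.4 and 46.1, and for thr 18.7, 19.3, 13.2 and 18.3. Thus lys, phe and dap, but not thr, had higher ratios in both c-Kit+ fractions than in both c-Kit- fractions. The summed signal of each cell type marker list was highest in GFP-low c-Kit-, though not that of every marker in it. The leukaemia is itself myeloid, so the late neutrophil and monocyte lists do not separate other cells from leukaemia cells. The summed signal of 5 MHC class II and dendritic cell genes was 3206 there, 496 in GFP-mid c-Kit-, 161 in GFP-mid c-Kit+ and 177 in GFP-high c-Kit+, with 5, 4, 2 and 2 of the genes above the floor. For 5 B and plasma cell genes the sums were 5631, 821, 179 and 194. Of these, 3, 3, 1 and 3 genes were above the floor, and the B cell genes Cd79a and Ms4a1 were at the floor on every array. Most of the sums in GFP-low c-Kit- and GFP-mid c-Kit- was Igha (4915 and 609). The B cell gene Cd79b had 162, 163, 143 and 98.9. The T and NK cell list gave sums of 301, 41.8, 39.7 and 90.7 with 3, 0, 1 and 2 of 5 genes above the floor, and Cd3e and Cd3g were at the floor throughout. Most of the sum in GFP-low c-Kit- was Ccl5 (219), while Nkg7 (36.7 there, 42.3 in GFP-high c-Kit+) and Cd8a (21.6 and 29.9) were higher in GFP-high c-Kit+. For 4 erythroid genes the sums were 112, 49.9, 28.6 and 25.2, with 3, 2, 1 and 1 above the floor. Late neutrophil genes had sums of 2519, 1317, 513 and 407, with 4, 4, 3 and 3 of 4 above the floor. Most of the sums in the c-Kit+ fractions was Camp, which had 521, 298, 447 and 358 along the sort. Camp was thus higher in both c-Kit+ fractions than in GFP-mid c-Kit-. Ltf, Mmp8 and Mmp9, the rest of this list, were lower in both c-Kit+ fractions than in both c-Kit- fractions. Monocyte and macrophage genes had sums of 18664, 11700.2, 4307 and 3132, with 5, 5, 5 and 4 of 5 above the floor. Csf1r, of the last list, had 6871, 5210, 2112 and 1388, far above the floor in all fractions. The part of RNA quality, of other cells and of more mature leukaemia cells in the differences described here was not tested.

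The NDC80 complex, the outer kinetochore's main grip on microtubules, showed the largest group median between the ends (log2 ratio 3.40). Its 4 subunits form a rod, with Ndc80 and Nuf2 at the microtubule end and Spc24 and Spc25 at the chromosome end. From GFP-low c-Kit- to GFP-high c-Kit+, Spc25 had signals of 51.8, 449, 443 and 760.4. The signal in GFP-low c-Kit- was far below the rest, the 2 middle fractions were level, and GFP-high c-Kit+ was the brightest, 14.7-fold above GFP-low c-Kit-. Nuf2 had signals of 42.3, 361, 328 and 540.1 (12.8-fold between the ends). Ndc80 had 40.0, 206, 162 and 348 and was the 1 gene of the 39 that was at least 2-fold higher in GFP-high c-Kit+ than in GFP-mid c-Kit+ (2.15-fold). Spc24 had 41.2, 200.1, 205 and 328 (7.96-fold between the ends), again with level middle fractions.

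The checkpoint genes divided by size. Ttk, which encodes the kinase Mps1 that starts checkpoint signalling at unattached kinetochores, had signals of 30.6, 201, 246 and 420.5, and Bub1, a kinase that binds there, had 50.7, 305, 344 and 637. Both were lowest in GFP-low c-Kit- by a wide margin, with end-to-end differences of 13.7-fold and 12.5-fold. Mad2l1, which encodes the Mad2 protein that holds back the anaphase activator Cdc20, had signals of 313, 1598, 1531 and 2278 (7.27-fold between the ends). Bub1b, which encodes BubR1 of the mitotic checkpoint complex, had 322, 838, 797 and 1143, a smaller end-to-end difference of 3.55-fold. Bub3, the partner that carries Bub1 and BubR1 to the kinetochore, had 2308, 3101, 3155 and 3639.6. On this probe set its signals lay within 1.58-fold of each other, under the 2-fold limit. The second brightest probe set of Bub3 differed 2.15-fold between the ends, so its class depends on the probe set.

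In the inner kinetochore and centromeric chromatin, all 12 genes were at least 2-fold higher in GFP-high c-Kit+ than in GFP-low c-Kit- (median log2 ratio 2.87). Among all genes 16.1% were. Cenpa, the histone H3 variant that marks the centromere, had signals of 363, 1075, 942 and 1332 (3.67-fold). Oip5 encodes a subunit of the Mis18 complex, which prepares centromeres for new CENP-A, and had 18.5, 45.9, 74.9 and 121. Oip5 was higher at each of the 3 steps, with log2 ratios of 1.31, 0.71 and 0.70. Cenph, Cenpi, Cenpk and Cenpm form 1 subcomplex of the inner layer. Cenpi had signals of 26.3, 161, 179 and 315 (log2 ratio 3.58 between the ends) and Cenpk had 62.2, 342, 326 and 576 (9.25-fold). Cenph had 16.6, 85.1, 110.1 and 130.1, with GFP-low c-Kit- close to the floor (7.85-fold between the ends). Cenpm had 40.6, 105, 86.2 and 129.7, the smallest end-to-end difference of the 12 (3.19-fold).

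Cenpn and Cenpl encode a pair that binds CENP-A nucleosomes. Cenpn had signals of 58.9, 310.3, 336 and 628 (10.7-fold between the ends) and Cenpl had 51.0, 165, 162 and 299 (5.86-fold). Cenpp and Cenpq, of the CENP-O group, had signals of 38.7, 172, 214 and 363 (9.38-fold) and 57.0, 283, 283 and 397 (6.96-fold). Cenpt and Cenpw encode histone-fold proteins that pair on DNA, and CENP-T recruits the NDC80 complex. Their values differed: Cenpt had signals of 42.9, 107, 104 and 147 (3.43-fold) and Cenpw had 21.9, 68.2, 88.6 and 168 (7.68-fold). Cenpw was in addition 2.46-fold higher in GFP-high c-Kit+ than in GFP-mid c-Kit-.

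Among the linker and scaffold genes, the MIS12 complex joins the inner layer to NDC80, and its 3 subunits among the 39 did not move by like amounts. Mis12 had signals of 127, 150, 175 and 197, within 1.55-fold across the sort. Dsn1 had 81.1, 258, 179 and 329.5 (4.06-fold between the ends), with GFP-mid c-Kit+ below GFP-mid c-Kit- by 1.44-fold. Nsl1 had 16.4, 58.9, 88.1 and 118, close to the floor in GFP-low c-Kit-, and was higher at every step. Knl1, the scaffold on which Bub1 and Bub3 assemble, had signals of 55.9, 382, 317 and 454 (8.13-fold). Zwint, which binds Knl1 and links it to the RZZ complex, had 457, 603, 910.5 and 1055. On this probe set the largest step was the one between the middle gates, with log2 ratios of 0.40, 0.59 and 0.21 over the 3 steps. Its second brightest probe set gave 0.43, 0.42 and 0.23.

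The outermost layer, the corona, is built on unattached kinetochores. Cenpe, a kinesin that carries chromosomes along microtubules, had signals of 66.8, 353, 267 and 422 (6.32-fold between the ends). Cenpf, a large coiled-coil corona protein, had 126, 683, 649 and 1076 (8.53-fold). Zwilch and Zw10 belong to the same RZZ complex, which brings dynein and Mad1 to the kinetochore, but their values were unlike. Zwilch had signals of 36.4, 235, 312 and 428 (11.8-fold), whereas Zw10, which also works in membrane traffic, had 220.3, 323, 312 and 369 and stayed within 1.67-fold.

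The SKA complex stabilises attachments at microtubule ends. Ska1 had signals of 17.1, 95.0, 117 and 228, with GFP-low c-Kit- close to the floor and GFP-high c-Kit+ the brightest (13.3-fold). Ska2 had 38.9, 118, 126 and 184 (4.72-fold), and Ska3 was below the floor in GFP-low c-Kit- with 50.7, 80.3 and 101 in the other fractions, which makes its end-to-end difference at least 6.60-fold. Sgo1, which protects centromeric cohesin until anaphase, had signals of 50.2, 246, 275 and 486 (9.69-fold), and its relative Sgo2a, known from mouse meiosis, had 30.6, 146, 160.2 and 271 (8.85-fold).

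The chromosomal passenger complex corrects wrong attachments through the kinase Aurora B. Aurkb, which encodes that kinase, had signals of 92.1, 530.5, 625 and 1064 (11.5-fold between the ends). Birc5, which encodes survivin, had 109.9, 465, 468 and 839 (7.64-fold), and Cdca8, which encodes borealin, had 495, 1979, 2205 and 2444 (4.94-fold). Incenp, the scaffold that activates Aurora B, had 1337, 2792, 2941 and 3859, a smaller difference of 2.89-fold. In all 4 genes GFP-low c-Kit- was lowest, and the middle fractions differed by less than 1 SD of a probe set's ratio.

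**Figure D2:**
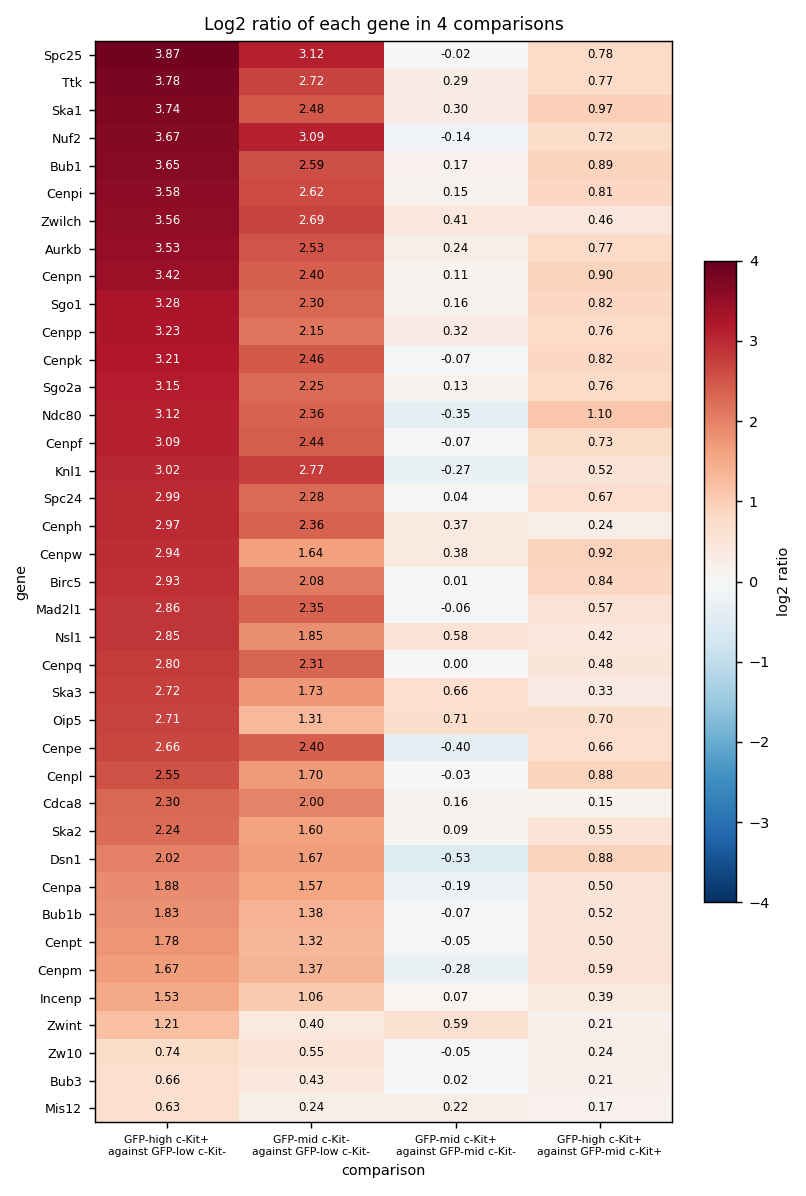
Log2 ratio of each gene (rows, sorted by the end-to-end ratio) in 4 comparisons (columns), with red for higher and blue for lower in the first-named fraction. The end-to-end and low to middle columns are red for nearly all genes, the column between the middle gates is near 0 with values from -0.53 to 0.71, and the middle to high column runs from 0.15 to 1.10.

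The step from GFP-low c-Kit- to GFP-mid c-Kit-, which compares NS-GFP gates within c-Kit- cells, held most of the difference. In GFP-mid c-Kit-, 35 of the 39 genes were at least 2-fold higher than in GFP-low c-Kit-, against 6.66% of all genes tested, and none was at least 2-fold lower, against 5.48%. The median log2 ratio was 2.25 (all genes 0.03). Spc25 (8.67-fold), Nuf2 (8.53-fold), Knl1 (6.84-fold) and Ttk (6.57-fold) had the largest differences. The 4 genes under 2-fold were Bub3, Mis12, Zw10 and Zwint. Over the 36 genes past 2-fold between the ends, this step made up a median of 73.7% of the end-to-end log2 ratio. Because GFP-low c-Kit- is a single array, this share rests on it.

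Between the middle NS-GFP gates of c-Kit- and c-Kit+ cells, all 39 genes, like most genes tested, differed by less than 2-fold. None of the 39 was at least 2-fold higher in GFP-mid c-Kit+ than in GFP-mid c-Kit-, against 3.57% of all genes, and none was at least 2-fold lower, against 5.30%. For a list of 39 genes these counts were near the shares of all genes. The median log2 ratio of the 39 was 0.07 (all genes 0.02), and 30 of the 39 ratios were within 1 SD of a probe set's ratio (0.37). The share of all genes within that SD was not counted. The sign of the small ratios of the 39 depends on the scaling. After quantile normalisation 23 of 39 were above 0, where 5758 of 11078 among all genes tested were. The count was 33 of 39 with the authors' scaling and 20 of 36 in the second deposited table. Of the 39, Oip5 (log2 ratio 0.71), Ska3 (0.66), Zwint (0.59) and Nsl1 (0.58) lay furthest above 0 and Dsn1 (-0.53) and Cenpe (-0.40) furthest below. The places of Cenpe and Zwint depend on the probe set. A second, similarly bright probe set of Cenpe gave 0.10. Dimmer ones of Zwint, above the floor in every fraction, gave 0.42, 0.23, -0.07 and 0.51. Between the same 2 fractions Kit itself differed 26.1-fold.

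Within c-Kit+ cells, all 39 genes were higher in GFP-high c-Kit+ than in GFP-mid c-Kit+, by a modest amount. The median log2 ratio was 0.67 (1.60-fold), against 0.02 for all genes, of which 5870 of 11034 tested were above 0. Of the 39 ratios, 33 exceeded 1 SD of a probe set's ratio (0.30) and 21 exceeded 2 SD. How many of all genes passed these limits was not counted, and the SD covers probe error only. The count at 2-fold was 1 of 39 (Ndc80), near the 1.02% of all genes that were higher, and 0 of 39 were lower, against 1.02%. Ska1 (1.95-fold), Cenpw (1.90-fold) and Cenpn (1.87-fold) followed Ndc80. The smallest differences were those of Cdca8 (1.11-fold), Mis12 (1.12-fold) and Bub3 (1.15-fold). For Cdca8 the other probe sets gave 1.51-fold and 1.62-fold, so its place rests on the probe set used. Across the 39 genes, the log2 ratios of this step and of the low to middle step had a Spearman rho of 0.47. These steps share no array, but each gene is read by the same probe set in both, so the value is a description.

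GFP-high c-Kit+ was also compared with GFP-mid c-Kit-, which leaves the GFP-low c-Kit- array out of the ratio but not out of the normalisation. All 39 genes were higher in GFP-high c-Kit+, with a median log2 ratio of 0.75 (all genes 0.07). Among all genes tested, 6194 of 11183 ratios were above 0. At least 2-fold higher were 9 of the 39, against 4.89% of all genes, and none was at least 2-fold lower, against 6.54%. The 9 were Oip5 (2.65-fold), Cenpw (2.46-fold), Ska1 (2.40-fold), Cenpp (2.11-fold), Bub1 (2.09-fold), Ttk (2.09-fold), Cenpn (2.02-fold), Nsl1 (2.01-fold) and Aurkb (2.01-fold). Several lay close to the limit, and the count was 17 with the authors' scaling, whose median of all genes in this comparison is 0.20.

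**Figure D3:**
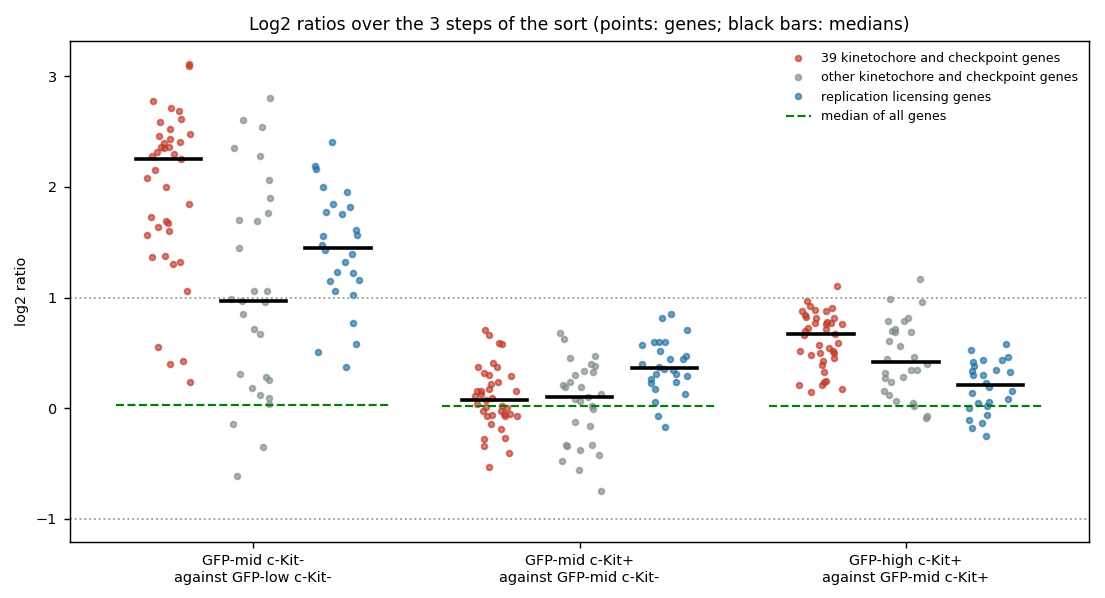
Log2 ratios over the 3 steps of the sort, each point a gene. The 39 genes are red, other kinetochore and checkpoint genes grey, and replication licensing and fork genes blue (labelled replication licensing genes). Black bars are list medians, the green dashed line is the median of all genes and dotted lines mark 2-fold. The red medians are 2.25, 0.07 and 0.67 from left to right and the blue ones 1.45, 0.37 and 0.21.

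Other genes of the same pathway came from a list of 34 that are not among the 39, of which 30 have a probe set of their own here. Usp44 was at the floor in all 4 fractions, and the other 29 genes were compared. Between the ends of the sort 19 of 29 were at least 2-fold higher, against 16.1% of all genes, and none lower, against 13.7% (median log2 ratio 1.36). The largest were Kif18a, a kinesin that damps chromosome movement (13.6-fold), Spdl1, the adaptor of dynein at the kinetochore (11.8-fold), and Trip13, which recycles Mad2 (10.7-fold). Over the 3 steps the medians were 0.97, 0.10 and 0.42, with 13, 0 and 1 genes at least 2-fold higher and none lower. Among all genes 6.66%, 3.57% and 1.02% were higher and 5.48%, 5.3% and 1.02% lower. The counts of the last 2 steps were thus near the shares of all genes. The 1 gene of the last step was Pmf1, the remaining subunit of the MIS12 complex, with signals of 82.3, 160.5, 109 and 244 (2.24-fold). Kntc1, the remaining RZZ subunit, had 55.9, 190.4, 221 and 304, the same order of fractions as Zwilch.

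Replication licensing and fork genes, which act before and during S phase, were set beside the 39 genes as another mark of cycling cells. Between the ends, 25 of 26 were at least 2-fold higher, against 16.1% of all genes (median log2 ratio 2.06). The largest differences were those of Rfc4 (7.82-fold), Cdc7 (7.32-fold) and Prim1 (7.21-fold). The later steps ran differently in size. Between the middle gates, 24 of the 26 ratios were above 0 (median 0.37), and between GFP-mid c-Kit+ and GFP-high c-Kit+ the median was 0.21 with 20 above 0. Among all genes tested, 5758 of 11078 and 5870 of 11034 ratios were above 0 in these 2 steps. The middle to high step was larger than the c-Kit step in 9 of the 26 replication genes and in 32 of the 39 kinetochore and checkpoint genes. The share of all genes with this order of steps was not counted. Both steps use the single GFP-mid c-Kit+ array, so a shift on it would move them in opposite directions. Mcm2, a subunit of the replicative helicase, had signals of 318, 837, 1141 and 961, peaking in GFP-mid c-Kit+, whereas Gmnn, the licensing inhibitor geminin, had 552, 1634, 1556 and 2321, the order seen in 16 of the 39. The difference between the lists was not tested, since each fraction has 1 array.

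Of the 39 genes, 22 have more than 1 probe set, and the others were used to check the values above. Between the ends, 32 of 36 other probe sets above the floor on at least 1 array gave the same sign as the brightest, and 25 were also past 2-fold. For the low to middle step this was 31 of 35 and 19, and for the middle to high step 28 of 36 and 1. Aurkb had a second probe set with signals of 103, 509, 629 and 1007, nearly those of the first, and the second probe set of Sgo1 had 9.88, 84.8, 85.4 and 161, below the floor in GFP-low c-Kit-. The second brightest probe set of Bub3 had 73.8, 113, 123 and 159, past 2-fold between the ends (log2 ratio 1.10 against 0.66 for the brightest). A dimmer probe set of Bub3 had 106, 66.7, 74.8 and 39.9, which runs the other way from its brightest (-1.41 against 0.66 between the ends). The second probe sets of Cenpa (34.5, 120.4, 56.5 and 66.5) and Cenpf (13.7, 58.5, 26.4 and 34.7, below the floor in GFP-low c-Kit-) were at least 2-fold lower in GFP-mid c-Kit+ than in GFP-mid c-Kit-, where the brightest differed little. Log2 ratios from dimmer probe sets were smaller for Spc25 (at least 1.90, with GFP-low c-Kit- at the floor, against 3.87) and Ttk (2.03 against 3.78). Single probe sets stand behind 17 of the 39 genes, including Nuf2, Ndc80, Mad2l1 and Birc5.

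**Figure D4:**
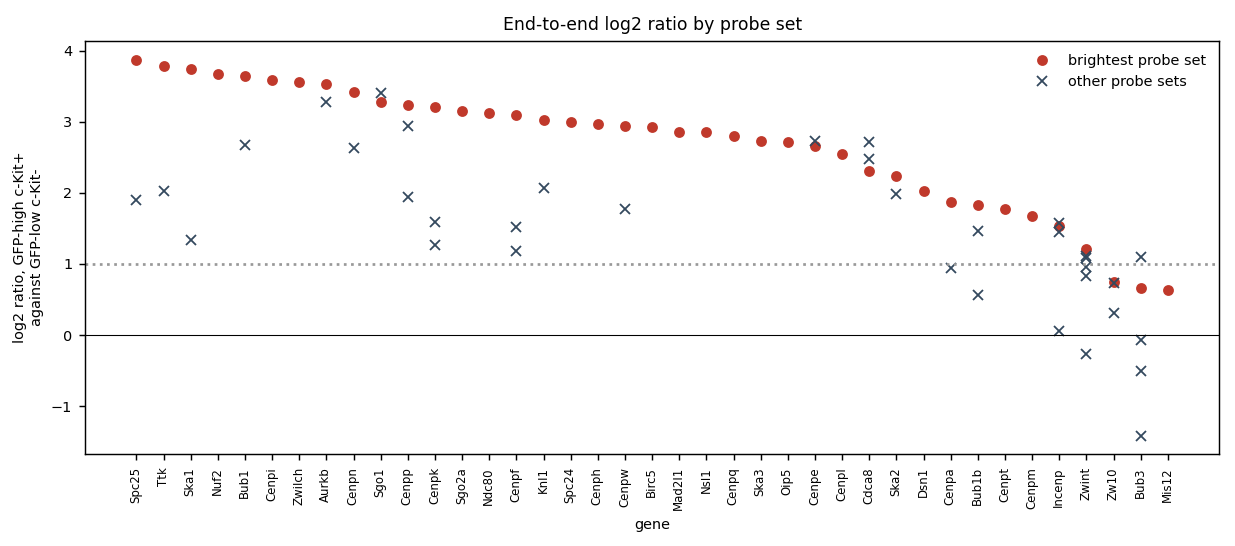
Log2 ratio of GFP-high c-Kit+ against GFP-low c-Kit- for the brightest probe set of each gene (red points) and for its other probe sets above the floor on at least 1 of both arrays (crosses), with genes sorted by the brightest; the dotted line marks 2-fold. Most crosses lie above 0 and below the red point, and 4 crosses, of Zwint and Bub3, lie below 0.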

How the data were processed

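RNA of 4 sorted fractions was measured on 1 array each. The authors deposited intensity values, linear and scaled by array, for every probe set, and a second deposited table of log2 values of 17419 probe sets, which equal the log2 of the first table plus 1 constant per array. The tools named in the submitters' processing notes are GCOS 1.2, R 3.0.2 and MAS5, without saying which made which table.

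Control probe sets (64 of 45101) were left out. Trimmed means of the arrays, leaving out 2% at each end, differed by 21.5%, above the 10% limit set for keeping the authors' scaling, so signals were quantile normalised (Python 3.11.15, numpy 2.4.6, pandas 2.3.3), floored at the 50th percentile and taken to log2. A comparison leaves out genes whose signal is at the floor in both fractions. The platform annotation lists 34945 probe sets with 1 gene, 932 with several, which were not used, and 9160 with none. Symbols were updated by gene ID for 34741 and kept for 204. A gene is its probe set with the highest mean in the first table. Ratios were tested on simulated data.

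The members, lists, motifs and alternatives were chosen with earlier results of these data known. All 39 genes could be named, and from other lists the 3 furthest in the direction of the median; Mcm2, Gmnn, Pmf1, Kntc1, single markers and the probe sets named were chosen after their values were seen. With 1 array per fraction the number of arrays limits the precision.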

Additional observations from a re-analysis of the deposited data

How the results depend on the processing

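No single-gene ratio past 2-fold changed sign under any alternative run. Between the ends of the sort, 36 of 39 genes past 2-fold became 19 of 21 with the second brightest probe set, and 9 of 39 when GFP-mid c-Kit- stood for GFP-low c-Kit-. The median of 2.93 became 1.83 under a floor at the 75th percentile, 1.90 with the second probe set and 0.75 with GFP-mid c-Kit- in that place. For the low to middle step, 35 genes became 22 under that floor and 15 with the second probe set. Its median of 2.25 became 1.89 with the authors' scaling, 1.34 with that floor, 1.79 with the mean of probe sets and 1.42 with the second probe set. With the second probe set, 2 of 21 genes were at least 2-fold lower between the middle gates. In GFP-high c-Kit+ over GFP-mid c-Kit-, 9 of 39 genes became 17 of 39 with the authors' scaling and 3 of 39 with the mean of probe sets. With the second probe set the count was 2 of 21. With the second probe set, 18 of 22 genes were highest in GFP-high c-Kit+ and 21 lowest in GFP-low c-Kit-. With the mean of probe sets, 37 of 39 were highest in GFP-high c-Kit+ and 37 lowest in GFP-low c-Kit-. The authors' scaling left 38 of 39 lowest in GFP-low c-Kit-. The exception was Mis12, with 144.9 there and 135.2 in GFP-mid c-Kit-. The cause of these shifts was not tested, except that a higher floor raises low signals and the second probe set covers fewer genes. Leaving out probe sets whose names end in _s_at or _x_at, an alternative chosen after seeing the data, changed no count among the 39 by more than 1.5 times, nor did a floor at the 25th percentile, no floor or the second deposited table.

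Counts over all genes moved far more, and were highest with no floor in every comparison. Genes at least 2-fold higher numbered 1813 between the ends (862 to 3934 over the alternatives), 737 for the low to middle step (345 to 2789), 396 between the middle gates (150 to 2421), 112 for the middle to high step (10 to 2096) and 547 for GFP-high c-Kit+ over GFP-mid c-Kit- (201 to 2627). Genes at least 2-fold lower numbered 1542 (757 to 3474), 606 (283 to 2523), 587 (246 to 2604), 113 (12 to 2051) and 731 (336 to 2712) in the same order. The shares of all genes printed beside the 39 therefore hold for the floor used.

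The authors' scaling moved the median of all genes to -0.25 for the low to middle step, 0.16 between the middle gates and 0.20 for GFP-high c-Kit+ against GFP-mid c-Kit-. Of the genes past 2-fold, the share that was higher went from 54.9% to 24.2%, from 40.3% to 56.6% and from 42.8% to 55.9% in these comparisons. It went from 54.0% to 43.2% between the ends, and from 49.8% to 38.9% (21.9% in the second table) for the middle to high step. Relative to all genes, the median of the 39 changed from 2.23 to 2.14, from 0.05 to 0.03 and from 0.68 to 0.72 in the first 3 of these. No paired analysis was possible because each fraction has 1 array.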

Other observations

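The place of the CHR letters was looked at after their positions were seen. In 9 of the 37 promoter windows of the kinetochore and checkpoint genes, TTTGAA on either strand begins within the 50 bases after the annotated start, against 2.25% of all windows. The 9 genes are Bub1b, Cdca8, Cenpa, Cenpf, Knl1, Ndc80, Oip5, Spc25 and Ttk. Their end-to-end log2 ratios run from 1.83 (Bub1b) to 3.87 (Spc25), and the letters lie only before the start in 6 other genes, Cenpn (3.42), Cenpw (2.94), Ska3 (at least 2.72), Cenpl (2.55), Zw10 (0.74) and Bub3 (0.66), so the ranges of the groups overlap. The positions describe these windows and are no sign of binding.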
